A study of Mus musculus with 4 samples.

Results

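Heat shock proteins and cold-inducible RNA-binding proteins are the 10 genes described here, of 32285 genes in the count matrices, taken by their symbols. The 8 heat-induced genes are Hspa1a, Hspa1b, Hsph1, Dnaja1, Dnajb1, Hspe1, Hspd1 and Hsp90aa1, and the 2 cold-induced genes are Cirbp and Rbm3. They were chosen by their difference between the diets in endothelial cells of these same libraries, which is why that difference is given below as a description. Test calls are printed there beside the share of all genes called, and nothing is read from them. Tests are read for the levels of the genes in vessel zones and mural cells, and for the difference between diets in mural cells of the same libraries.

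What happens to brain vessels when microglia are lost was the question of the study. C57BL6 mice ate a diet with PLX5622 at 1200 ppm, an inhibitor of the receptor CSF1R on which microglia depend, or a control diet, for 1 month in both groups. Brains were taken without meninges, cerebellum and olfactory bulbs, cells carrying the endothelial surface protein CD31 were sorted, and single-cell RNA was counted from the 3' end of transcripts with 10x Genomics v3.1 chemistry. The PLX5622 diet and the control diet have 2 libraries each, and per the labels 3 mice stand behind the 2 libraries of a diet. Libraries of a diet may therefore share mice, and a p-value measures the spread between libraries, which may be technical. PLX5622 given in the diet reaches the whole animal, and the labels name no transgene.

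Heat shock proteins are chaperones that hold or refold unfolded proteins. Heat shock factor 1 (HSF1) drives many of their genes by binding heat shock elements, which are inverted repeats of the short unit nGAAn in promoters, and most of these genes are also transcribed without stress. CIRBP and RBM3 are RNA-binding proteins of mild cold, whose RNA rises when a cell or body cools slightly and falls when it warms, and both are known to follow the daily rhythm of body temperature in mice. Endothelial cells of the brain form the blood-brain barrier, and arterial, capillary and venous cells differ in their transcripts, while pericytes and smooth muscle cells are the mural cells around them.

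The promoters are shown because the 2 gene classes are known for different promoter elements and because members of 1 class did not move alike. Windows run from 250 bases before to 50 bases after the start of transcription and were found in RefSeq (GRCm38.p6) for 8 of the 10 genes. Capitals mark, in the 5 heat-induced genes, pairs of heat shock units (GAANNTTC or TTCNNGAA), alone or in runs, and in Cirbp the mild cold response element (TCCCCGCC or its complement GGCGGGGA).
Hspa1a, chr17:34972107-34972406, minus strand: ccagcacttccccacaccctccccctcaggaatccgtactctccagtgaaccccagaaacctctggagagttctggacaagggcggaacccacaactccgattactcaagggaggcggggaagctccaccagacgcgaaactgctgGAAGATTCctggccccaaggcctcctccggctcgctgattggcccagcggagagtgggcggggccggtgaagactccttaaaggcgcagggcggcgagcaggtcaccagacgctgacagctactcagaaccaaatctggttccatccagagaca
Hsph1, chr5:149636287-149636586, minus strand: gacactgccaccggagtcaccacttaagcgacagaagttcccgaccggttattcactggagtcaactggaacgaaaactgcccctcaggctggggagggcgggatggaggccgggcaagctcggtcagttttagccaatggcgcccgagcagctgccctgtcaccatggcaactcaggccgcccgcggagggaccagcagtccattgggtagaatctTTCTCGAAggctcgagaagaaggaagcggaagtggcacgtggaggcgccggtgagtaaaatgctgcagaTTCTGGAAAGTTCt
Dnaja1, chr4:40722218-40722517, plus strand: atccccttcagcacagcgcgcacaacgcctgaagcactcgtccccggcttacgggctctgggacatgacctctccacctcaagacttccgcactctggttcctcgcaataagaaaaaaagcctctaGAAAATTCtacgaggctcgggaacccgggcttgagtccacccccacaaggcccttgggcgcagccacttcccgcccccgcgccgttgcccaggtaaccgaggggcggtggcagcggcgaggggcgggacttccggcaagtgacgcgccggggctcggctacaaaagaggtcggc
Dnajb1, chr8:83607925-83608224, plus strand: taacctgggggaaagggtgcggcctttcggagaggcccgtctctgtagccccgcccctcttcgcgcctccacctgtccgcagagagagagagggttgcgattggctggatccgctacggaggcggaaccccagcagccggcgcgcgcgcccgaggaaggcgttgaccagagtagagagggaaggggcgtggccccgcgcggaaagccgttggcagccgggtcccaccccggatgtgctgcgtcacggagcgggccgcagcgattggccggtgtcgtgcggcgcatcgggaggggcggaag
Hspe1, chr1:55087898-55088197, plus strand: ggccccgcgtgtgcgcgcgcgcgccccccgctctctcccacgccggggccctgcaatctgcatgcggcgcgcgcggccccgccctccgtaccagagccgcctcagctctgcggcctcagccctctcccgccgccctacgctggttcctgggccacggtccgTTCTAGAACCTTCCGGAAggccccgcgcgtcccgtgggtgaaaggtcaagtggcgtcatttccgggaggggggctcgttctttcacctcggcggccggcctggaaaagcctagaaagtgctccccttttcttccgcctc
Cirbp, chr10:80167589-80167888, plus strand: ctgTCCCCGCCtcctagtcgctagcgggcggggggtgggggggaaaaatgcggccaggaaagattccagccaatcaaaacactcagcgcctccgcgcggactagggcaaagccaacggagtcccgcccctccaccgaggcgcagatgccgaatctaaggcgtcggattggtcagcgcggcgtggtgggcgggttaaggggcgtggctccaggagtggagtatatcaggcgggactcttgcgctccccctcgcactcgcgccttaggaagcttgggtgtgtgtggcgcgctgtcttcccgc

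A pair of heat shock units lay in the windows printed here for Hspa1a, Hsph1, Dnaja1 and Hspe1, and no match lay in that of Dnajb1. Dnaja1 had 3 windows, and only the printed window held a pair. Such a pair occurred in 15.1% of the 32851 mouse promoter windows, so its presence says little about 1 gene. Runs of 3 units (GAANNTTCNNGAA or TTCNNGAANNTTC) were rarer, at 0.603% of windows, and were found for Hsph1 from 37 to 49 bases after the start and for Hspe1 from 89 to 72 bases before it. Hspe1 and Hspd1 are neighbours read in opposite directions. Of the 2 Hspd1 windows, 1 shares 285 of 300 bases with the Hspe1 window, so that run stands before both genes there. The other Hspd1 window held no pair of heat shock units. The windows of Hspa1a and Hspa1b were the same at 296 of 300 positions. Their transcripts share 65.5% of 25-base words over the whole length, but 0 of 276 in the last 300 bases of Hspa1a, where 3' libraries are read, and reads of the rest may still be split or lost between this near-identical pair. The mild cold response element lay in the Cirbp window from 247 to 240 bases before the start, in 5.38% of all windows, and also in the windows of Hspa1a and Hspa1b, from 137 to 130 bases before the start. Windows of other RefSeq transcripts, not printed here, held it as well for Dnaja1 and for Dnajb1. A match is a run of letters and no measured binding.

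The libraries held 19044018 and 26949278 UMIs (unique molecular identifiers, each counting 1 captured transcript) under PLX5622 and 11186648 and 38600208 under control diet. Filters of at least 1000 UMIs and 500 genes, and no more than 10% of UMIs from mitochondrial genes, kept 3989 and 3670 cells under PLX5622 and 1696 and 5509 under control diet. Median UMIs per kept cell were 3834 and 5921.5 under PLX5622 against 5184 and 5573 under control diet, so the first PLX5622 library was the shallowest per cell. Cells named endothelial-like from markers numbered 3655 and 3358 under PLX5622 and 1569 and 5088 under control diet, and 12 endothelial markers made up 2.91% and 2.87% of their UMIs under PLX5622 and 2.85% and 2.83% under control diet. Arterial-like, capillary-like and venous-like zones held 3614, 5266 and 1813 of these cells, and 2977 were given no zone. Pericyte-like cells numbered 88 and 74 under PLX5622 and 36 and 99 under control diet, and smooth muscle-like cells 61 and 60 under PLX5622 and 36 and 70 under control diet. Both are mural classes found among the cells sorted for CD31. The pericyte-like droplets hold endothelial RNA, with values given below. Any 2 libraries shared 1 to 6 barcodes of kept cells.

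In endothelial-like cells, most heat-induced chaperones were higher and both cold-induced genes lower in the PLX5622 libraries. Levels are CPM, the UMIs of a gene summed over all cells of a class in a library and scaled to 1000000 UMIs, and in such a sum fewer cells expressing a gene and less RNA per cell cannot be told apart. Both PLX5622 libraries lay above both control libraries for 5 of the 8 heat-induced genes, where 20.9% of all 12787 genes tested did so, and below both for 2 of 2 cold-induced genes, where 20.4% did so. With edgeR's quasi-likelihood test, 3 heat-induced genes passed an adjusted p of 0.05 as higher (background 0.759%) and 1 cold-induced gene as lower (background 0.289%). Since this contrast chose the genes, nothing is read from these shares. The median log2 fold change was 0.46 over the heat-induced genes, -0.57 over the cold-induced genes and 0.00 over all genes tested.

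The inducible HSP70 proteins, which refold clients in cycles of ATP hydrolysis, are encoded by Hspa1a and Hspa1b. Hspa1a stood at 207 and 165 CPM under PLX5622 and at 171 and 178 CPM under control diet. The groups overlapped, and the second PLX5622 library was the lowest of the 4. Hspa1b stood at 59.8 and 48.7 CPM under PLX5622 and at 35.6 and 39.7 CPM under control diet, without overlap, and its log2 fold change with its SE was 0.51 ± 0.11. Hsph1 encodes HSP110, which exchanges the nucleotide of HSP70. It was at 38.5 and 23.4 CPM under PLX5622 and at 11.9 and 15.3 CPM under control diet. Its log2 fold change of 1.12 ± 0.27 was the largest of the 10 genes, the groups did not overlap, and the first PLX5622 library was far above the second.

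The HSP40 proteins DNAJA1 and DNAJB1 deliver clients to HSP70 and stimulate its ATPase. Dnaja1 had 594 and 477 CPM under PLX5622 and 339 and 374 CPM under control diet. Its groups were apart (0.58 ± 0.13), with the first PLX5622 library again the higher one. Dnajb1 had 273 and 236 CPM under PLX5622 and 242 and 261 CPM under control diet, a log2 fold change of 0.02 ± 0.11, with both control libraries between the PLX5622 libraries. The 2 HSP40 genes therefore had different values in the same cells.

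HSPD1 and HSPE1 are the barrel and the lid of the mitochondrial chaperonin. Hspe1 was counted at 126 and 118 CPM under PLX5622 and at 72.4 and 88.2 CPM under control diet (0.59 ± 0.10). Hspd1 was counted at 114 and 95.2 CPM under PLX5622 and at 72.1 and 84.4 CPM under control diet (0.41 ± 0.11). Both groups of libraries were apart for either gene. Hsp90aa1, the inducible HSP90 that matures kinases and receptors, was at 416 and 327 CPM under PLX5622 and at 284 and 339 CPM under control diet (0.25 ± 0.13), and its second control library lay above the second PLX5622 library.

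Cirbp was at 61.8 and 77.4 CPM under PLX5622 and at 111 and 124 CPM under control diet, a log2 fold change of -0.75 ± 0.11. Rbm3 was at 227 and 246 CPM under PLX5622 and at 284 and 335 CPM under control diet, a log2 fold change of -0.39 ± 0.11. For both genes the first PLX5622 library was the lowest and the second control library the highest of the 4. Calls depended on single libraries. Dnaja1 was no longer called without control library 1 (log2 fold change 0.51), control library 2 (0.66) or PLX5622 library 1 (0.42), nor was Hspa1b without these (0.44, 0.60 and 0.36) or with DESeq2 (0.51). Hsph1, which was not called in all 4 libraries, was called without PLX5622 library 1 (0.74) and without PLX5622 library 2 (1.46), Rbm3 without control library 1 (-0.51), and Hspd1 without PLX5622 library 2 (0.54).

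**Figure D1:**
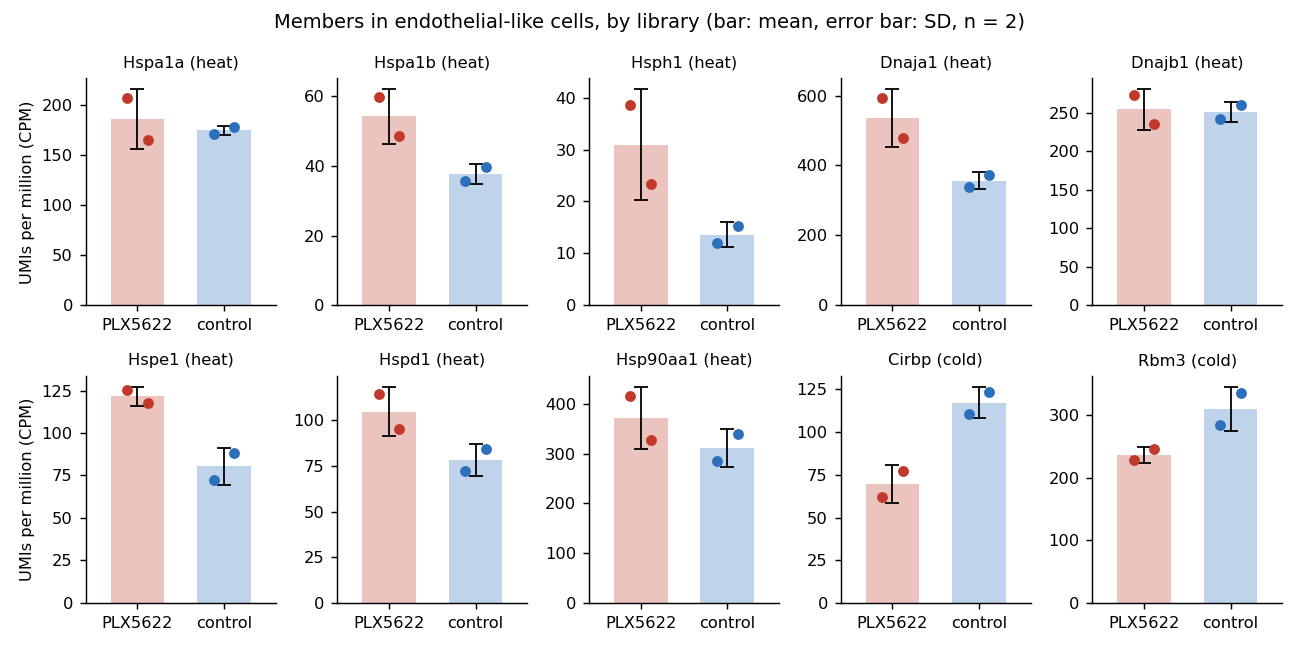
Level in CPM in endothelial-like cells for each of the 10 genes (vertical axis), PLX5622 libraries left and control libraries right; each dot is 1 library, bars are means and error bars the SD over 2 libraries. For Hspa1b, Hsph1, Dnaja1, Hspe1 and Hspd1 both PLX5622 dots lie above both control dots, for Cirbp and Rbm3 below, and for Hspa1a, Dnajb1 and Hsp90aa1 the dots overlap.

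The endothelial zones were also summed apart, again as a description of the cells that chose the genes. In arterial-like cells, 3 heat-induced genes passed the threshold as higher (background 0.698%) and 1 cold-induced gene as lower (background 0.276%). Hsph1 stood at 41.4 and 29.6 CPM under PLX5622 and at 11.1 and 15.4 CPM under control diet there, a log2 fold change of 1.32 ± 0.18. Hspa1a stood at 292 and 236 CPM under PLX5622 and at 278 and 252 CPM under control diet, which overlapped. The arterial-like calls of Dnaja1 and Hspe1 were lost without PLX5622 library 1 (0.41 and 0.53) and without PLX5622 library 2 (0.77 and 0.48), that of Cirbp without PLX5622 library 1 (-0.64), and Rbm3 was called without control library 1 (-0.50). The call of Hspe1 was also lost without the tenth of cells with the most UMIs (0.48), and those of Dnaja1 and Hspe1 with zones clustered again without mixed droplets (0.54 and 0.52).

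In capillary-like cells, 4 heat-induced genes passed as higher (background 0.950%) and both cold-induced genes as lower (background 0.382%). Hspa1b was at 49.6 and 44.4 CPM under PLX5622 against 24.7 and 33.0 CPM under control diet (0.63 ± 0.14), and Hsp90aa1, which overlapped over all endothelial-like cells, was apart here at 401 and 307 CPM under PLX5622 and 252 and 289 CPM under control diet. Cirbp was at 60.6 and 71.4 CPM under PLX5622 and at 114 and 125 CPM under control diet (-0.86 ± 0.12). Without PLX5622 library 1 the capillary-like calls of Hsph1 (0.78), Dnaja1 (0.43), Hspa1b (0.56), Hspe1 (0.47) and Rbm3 (-0.31) were lost. Rbm3 was also not called without control library 2 (-0.24) or PLX5622 library 2 (-0.52), while without control library 2 Hspa1a (0.48), Hspd1 (0.56) and Hsp90aa1 (0.49) were called.

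In venous-like cells, 2 heat-induced genes passed as higher (background 0.676%) and both cold-induced genes as lower (background 0.276%). Dnaja1 had 556 and 466 CPM under PLX5622 and 354 and 374 CPM under control diet there, and Hsph1 35.9 and 19.8 CPM under PLX5622 and 16.8 CPM in each control library. Calls were lost there for Dnaja1 without PLX5622 library 1 (0.35), for Hspe1 without PLX5622 library 2 (0.56) and for Rbm3 without control library 2 (-0.38), PLX5622 library 1 (-0.51) or PLX5622 library 2 (-0.35), and Hsph1 was called without PLX5622 library 2 (1.10). With DESeq2 the call of Hspe1 was lost in arterial-like (0.51), capillary-like (0.57) and venous-like cells (0.58), that of Rbm3 in capillary-like (-0.41) and venous-like cells (-0.43), and that of Hspa1b in capillary-like cells (0.66). Of the 10 genes, Hspa1b, Hsph1, Dnaja1, Hspe1 and Hspd1 lay above in both PLX5622 libraries and Cirbp and Rbm3 below in each of the 3 zones. The share of all genes without overlap was 18.0% above and 18.3% below in arterial-like, 18.5% and 18.3% in capillary-like, and 19.9% and 19.3% in venous-like cells.

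Whether zones differed in the diet difference was tested with a zone-by-diet term. The term rests on the same cells and libraries that chose the genes, so it is not independent of that choice. In simulated counts the term for arterial-like against capillary-like cells found 46% of changes of 1 on the log2 scale. It found 4% of changes of 0.5, so a missing call does not show that zones were alike. No gene of the 10 passed in edgeR's quasi-likelihood test with Benjamini-Hochberg adjustment for arterial-like against capillary-like cells (0.189% of 11122 genes did) or for venous-like against capillary-like cells (0.144%), and 2 and 1 of the 10 had an unadjusted p under 0.05. The smallest was Hsp90aa1, with a venous-by-diet term of -0.24 ± 0.07 on the log2 scale (adjusted p = 0.291). Hspa1a had an arterial-by-diet term of -0.24 ± 0.09 (adjusted p = 0.766), and the terms of Cirbp were 0.03 ± 0.11 for arterial-like (adjusted p = 0.999) and 0.14 ± 0.12 for venous-like cells (adjusted p = 0.948).

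**Figure D2:**
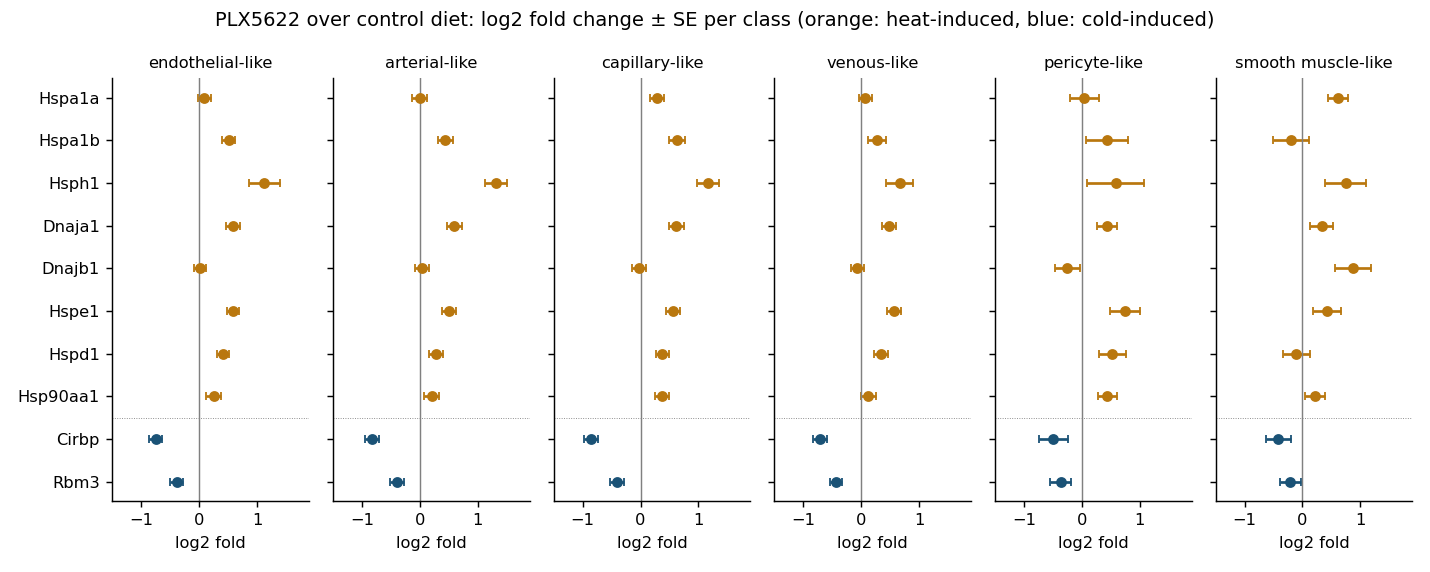
Log2 fold change of PLX5622 over control diet (horizontal axis, with the SE from edgeR as bars) for each gene in 6 classes of cells; orange marks heat-induced and blue cold-induced genes. Cirbp and Rbm3 lie left of 0 in all 6 panels, and in the panel of endothelial-like cells Hsph1 is farthest right at 1.12 while Dnajb1 lies at 0.02.

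The UMIs of the 8 heat-induced genes over those of Cirbp and Rbm3 give 1 value for a library that does not depend on its scaling. In endothelial-like cells the ratio was 6.32 (exact 95% interval 6.12 to 6.52) and 4.61 (4.49 to 4.73) under PLX5622, and 3.11 (2.99 to 3.23) and 3.01 (2.95 to 3.07) under control diet. These intervals cover counting error only. The control libraries lay close together although the second held over 3 times as many UMIs, while the PLX5622 libraries differed from each other. The mean was 5.47 ± 1.21 under PLX5622 and 3.06 ± 0.07 under control diet (SD, n = 2 libraries each), 1.79 times as high under PLX5622. No test is given, since the genes were chosen for this pattern.

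The order of the libraries was the same in the zones. Arterial-like cells had 6.78 and 4.86 under PLX5622 and 3.38 and 3.18 under control diet, capillary-like cells 6.48 and 4.43 under PLX5622 and 2.90 and 2.76 under control diet, and venous-like cells 5.38 and 4.77 under PLX5622 and 3.04 and 3.01 under control diet. Mural cells were other droplets of the same libraries. Pericyte-like cells had 6.37 and 4.95 under PLX5622 and 3.13 and 3.44 under control diet, and smooth muscle-like cells 4.66 and 3.96 under PLX5622 and 2.82 and 2.73 under control diet. PLX5622 libraries thus lay above control libraries in all 6 classes, and in each library the ratio was lowest in smooth muscle-like cells. The 6 classes are not 6 separate observations. Zones are parts of the endothelial-like sums that chose the genes, and pericyte-like droplets hold endothelial RNA. The interval of the smooth muscle-like ratio overlapped that of venous-like cells in every library. It overlapped that of capillary-like cells in all but the first PLX5622 library.

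Values that moved with the libraries stand beside this ratio. In barcodes under 100 UMIs, which hold free RNA and no cell, the ratio was 4.71 and 4.18 under PLX5622 and 2.08 and 2.82 under control diet. Free RNA was estimated at 0.539% and 0.617% of endothelial-like UMIs under PLX5622 and at 0.402% and 0.696% under control diet. The estimate takes all hemoglobin UMIs as free RNA, in cells with at most 1% of them, and rests on the hemoglobin share of the small barcodes. Cells above 1% are left out of it but are in the sums. After the free RNA profile was subtracted at this share, the endothelial-like ratio stayed 1.79 times as high under PLX5622. Without Hspa1a and Hspa1b it was 1.83 times as high, and leaving out 1 library at a time gave 1.51 to 2.07 times. The 10 pericyte markers, none at 0 in any library, summed to 332 and 289 CPM in endothelial-like cells under PLX5622 and to 227 and 231 CPM under control diet, and their part in the result was not tested. The 12 markers of microglia and macrophages summed to 27.4 and 30.4 CPM under PLX5622 and to 30.7 and 30.1 CPM under control diet.

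**Figure D3:**
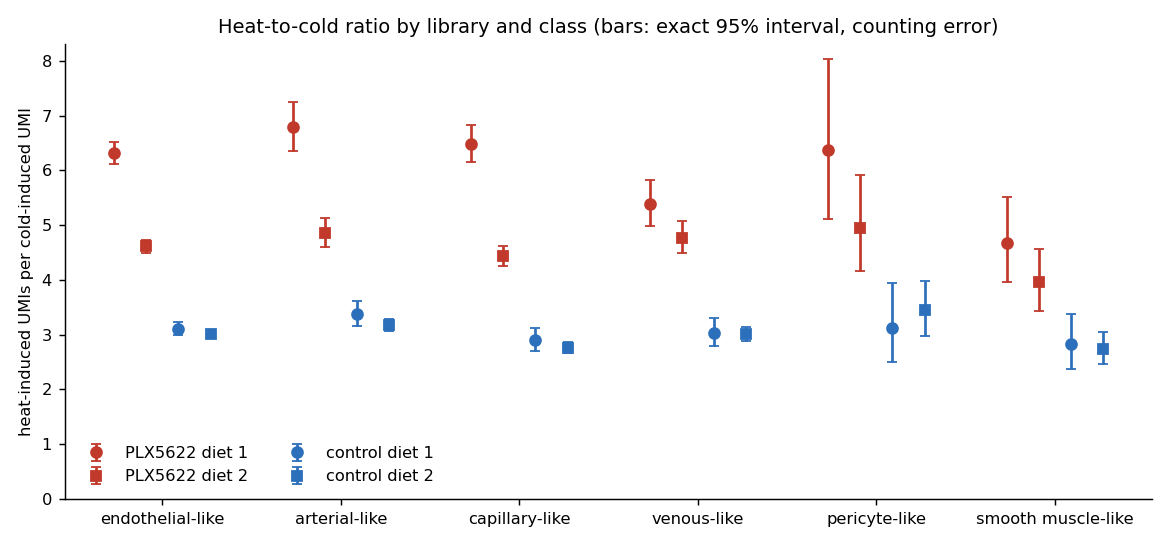
UMIs of the 8 heat-induced genes per UMI of Cirbp plus Rbm3 (vertical axis) for each library in 6 classes of cells; red marks PLX5622, blue control diet, circles library 1, squares library 2, and bars the exact 95% interval of counting error. In each class both red points lie above both blue points, with the endothelial-like values at 6.32 and 4.61 under PLX5622 and 3.11 and 3.01 under control diet.

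In endothelial-like cells the share of cells that held these transcripts also differed between diets, which restates the levels that chose the genes. To compare cells of different depth, each endothelial-like cell was thinned to 1000 UMIs. A UMI of a heat-induced gene was then present in 79.8% and 72.8% of cells under PLX5622 and in 66.5% and 70.1% under control diet, and without thinning in 97.5% and 98.2% under PLX5622 and 95.0% and 97.1% under control diet. A UMI of Cirbp or Rbm3 was present in 24.5% and 26.3% of thinned cells under PLX5622 and in 33.3% and 35.5% under control diet, and without thinning in 63.0% and 79.2% under PLX5622 and 81.7% and 87.0% under control diet. The tenth of thinned cells with the most heat-induced UMIs held 27.2% and 28.4% of those UMIs under PLX5622 and 31.7% and 29.8% under control diet. In mural cells thinned alike, the heat-induced share differed between diets by 8.27 points in pericyte-like and 1.41 in smooth muscle-like cells. The cold-induced share differed by -0.74 points in pericyte-like (0.74 at 2000 UMIs) and -8.78 in smooth muscle-like cells. No class of these sorted cells is known to lack the 10 genes, so a background share was not set. The estimate of free RNA is given above.

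Cells with a UMI of Hspa1a or Hspa1b were set beside the other cells of their library. After thinning, 691 and 533 endothelial-like cells under PLX5622 and 248 and 808 under control diet had such a UMI. Dnajb1 was 1.17 and 1.40 times as high in these cells as in the others under PLX5622, and 1.36 and 1.22 times under control diet. Dnaja1 was 1.09 and 1.02 times as high under PLX5622, and 1.06 and 1.03 times under control diet. By the same ratio, Hsp90aa1 was at 1.06 and 1.197 under PLX5622 and at 1.18 and 1.13 under control diet. Hspe1 was at 1.06 and 0.88 under PLX5622 and at 1.07 and 0.89 under control diet. Hspd1 was at 0.84 and 1.01 under PLX5622 and at 0.84 and 0.76 under control diet. Hsph1 was at 0.74 and 0.92 under PLX5622 and at 0.31 and 1.303 under control diet. The heat-induced genes were thus not all higher in cells with Hspa1a or Hspa1b. In capillary-like cells Dnajb1 was again higher in every library. Dnaja1 was at 1.11 and 1.03 there under PLX5622 but at 0.73 and 0.905 under control diet. These ratios are a description over cells of single libraries and no test.

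**Figure D4:**
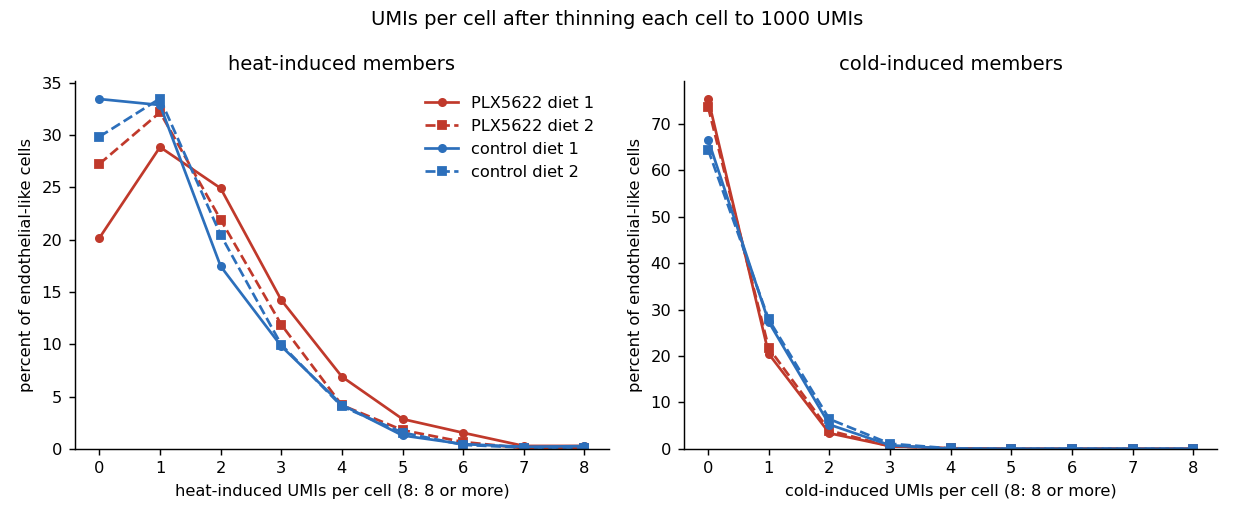
Percent of endothelial-like cells (vertical axis) by the number of heat-induced UMIs (left) or of Cirbp and Rbm3 UMIs (right) in a cell thinned to 1000 UMIs; red lines are PLX5622 and blue lines control libraries. Cells with 0 heat-induced UMIs are fewest in the first PLX5622 library, and cells with 0 cold-induced UMIs are more frequent in both PLX5622 libraries.

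Smooth muscle-like cells are other cells than the endothelial cells that chose the genes, but they come from the same libraries. Their diet test is therefore not independent of that choice. Pericyte-like sums also hold endothelial RNA. In simulated counts the diet test found 12% of changes of 0.5 and 81% of changes of 1 on the log2 scale in pericyte-like cells. In smooth muscle-like cells it found 20% and 87%, so a missing call does not show equal levels. Changes were planted only in genes with more UMIs than Hsph1 and Hspa1b had in these classes, or Hspe1 and Cirbp in pericyte-like cells. The rates therefore do not cover these genes. In pericyte-like cells, edgeR's quasi-likelihood test called 0 of the 10 genes (0.0306% of 6539 genes were called), DESeq2 and limma-voom called 0, and 4 had an unadjusted p under 0.05. Hspe1 was at 173 and 122 CPM under PLX5622 and at 83.2 and 86.8 CPM under control diet (log2 fold change 0.75 ± 0.25, adjusted p = 0.648). Dnaja1 was at 584 and 452 CPM under PLX5622 and at 349 and 404 CPM under control diet (0.43 ± 0.17, adjusted p = 0.752). The groups were apart for both genes. Hsp90aa1 and Hspd1 were also above in both PLX5622 libraries, with log2 fold changes of 0.44 ± 0.17 and 0.52 ± 0.23 (adjusted p = 0.736 and 0.799), where 17.6% of genes were above.

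Cirbp in pericyte-like cells was at 83.5 and 88.4 CPM under PLX5622 and at 107 and 129 CPM under control diet (-0.49 ± 0.25, adjusted p = 0.850). Rbm3 was at 212 and 216 CPM under PLX5622 and at 301 and 259 CPM under control diet (-0.36 ± 0.18, adjusted p = 0.850). Both cold-induced genes and Dnajb1 were below in both PLX5622 libraries, where 17.9% of genes were below. Depth limits these values, since Hsph1 rests on 19 and 11 UMIs under PLX5622 and on 7 and 15 under control diet. Endothelial markers made up 1.87% and 2.12% of the UMIs of pericyte-like droplets under PLX5622 and 2.07% and 2.00% under control diet, not far below endothelial-like cells, so these droplets hold endothelial RNA. Without droplets over 1% endothelial markers, these markers made up 0.107% and 0.0233% under PLX5622 and 0.0280% and 0.1004% under control diet, in 37 and 20 cells against 8 and 32. The heat-to-cold ratio was 5.76 and 5.47 under PLX5622 and 3.44 and 3.39 under control diet in these cells, 1.64 times as high, though the exact 95% intervals overlapped (3.75 to 9.20 and 3.24 to 9.79 against 1.601 to 8.23 and 2.32 to 5.06). Single genes were not tested in so few cells. The 6 erythroid markers summed to 167 and 16381 CPM there under PLX5622 and to 23.1 and 70.3 CPM under control diet, and their part in the result was not tested. Of 16 immediate early genes, which rise quickly when tissue is handled, 0 had a positive log2 fold change in pericyte-like cells, at a median of -0.52. Among them 1, Atf3, a transcription factor induced by stress, was called lower (-0.96 ± 0.16, edgeR adjusted p = 0.0312), and the part of handling in these values was not tested.

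In smooth muscle-like cells, where endothelial markers made up 0.190% and 0.108% of UMIs under PLX5622 and 0.0821% and 0.364% under control diet, edgeR called 0 of the 10 genes and 0 of 6389 genes (0.00%). DESeq2 and limma-voom called 0 of the 10, and 3 had an unadjusted p under 0.05 in edgeR. Hspa1a stood at 431 and 412 CPM under PLX5622 and at 282 and 271 CPM under control diet (0.61 ± 0.17, adjusted p = 0.689). Dnajb1 stood at 157 and 228 CPM under PLX5622 and at 60.7 and 135 CPM under control diet (0.87 ± 0.31, adjusted p = 0.997). Both genes were apart between the diets here, while both overlapped in endothelial-like cells. Hsph1 and Hspe1 were also above in both PLX5622 libraries, where 16.6% of genes were above. The groups overlapped for Hspa1b, Hspd1, Dnaja1 and Hsp90aa1. Hspa1b was at 81.2 and 46.7 CPM under PLX5622 and at 81.9 and 65.2 CPM under control diet (-0.20 ± 0.30). Hspd1 was at 145 and 112 CPM under PLX5622 and at 146 and 130 CPM under control diet (-0.10 ± 0.23). Dnaja1 and Hsp90aa1 had log2 fold changes of 0.33 ± 0.19 and 0.22 ± 0.17.

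Cirbp in smooth muscle-like cells was at 129 and 138 CPM under PLX5622 and at 203 and 162 CPM under control diet (-0.42 ± 0.22, adjusted p = 0.997), apart as 15.8% of genes were below. Rbm3 was at 325 CPM in each PLX5622 library and at 309 and 429 CPM under control diet, which overlapped. Single libraries decided calls in these small sums. By edgeR with Benjamini-Hochberg adjustment, Dnajb1 was called without control library 2 (1.68, adjusted p = 0.000297), without PLX5622 library 1 (1.13, adjusted p = 0.0467) and without the tenth of cells with the most UMIs (1.204, adjusted p = 0.00306), in a range of adjusted p from 0.000297 to 1.00 over 14 alternatives. Hspa1a was called without control library 1 (0.65, adjusted p = 0.0195, range 0.0195 to 1.00) and had a log2 fold change of -0.33 when cells over 5% mitochondrial UMIs were dropped, leaving 11 and 14 cells under PLX5622 and 6 and 22 under control diet. The difference between smooth muscle-like and capillary-like cells in the diet difference was 0.92 ± 0.29 for Dnajb1 (edgeR adjusted p = 0.540) and 0.37 ± 0.22 for Hspa1a (adjusted p = 0.986). No gene of the 10 passed that term, 0.00% of 7944 genes did, and 3 of the 10 had an unadjusted p under 0.05. The term for pericyte-like against capillary-like cells called 0 of the 10 (0.00% of genes), with 0 at an unadjusted p under 0.05.

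The levels of the genes in zones were tested in 12 sums, in a model that blocks on the library and so compares zones inside each library. In arterial-like against capillary-like cells, 4 heat-induced genes were higher (background 15.7%) and 1 was lower (background 14.4%), by edgeR's quasi-likelihood test with Benjamini-Hochberg adjustment. Hspa1a averaged 264 ± 25.4 CPM in arterial-like and 142 ± 26.4 CPM in capillary-like cells (SD, n = 4 libraries), a log2 difference of 0.86 ± 0.05 (edgeR adjusted p = 3.15e-16), higher in 4 of 4 libraries. Hspa1b averaged 58.1 ± 12.7 CPM in arterial-like and 38.5 ± 11.3 CPM in capillary-like cells (0.55 ± 0.07, adjusted p = 6.38e-09), and Hsp90aa1 387 ± 48.2 CPM and 317 ± 64.0 CPM (0.29 ± 0.04, adjusted p = 6.83e-09). Both were higher in 4 of 4 libraries.

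Hsph1 averaged 24.3 ± 13.8 CPM in arterial-like and 19.9 ± 10.97 CPM in capillary-like cells (0.30 ± 0.11, edgeR adjusted p = 0.0299). Its call was lost without control library 2 (0.32), PLX5622 library 1 (0.34) or PLX5622 library 2 (0.22) and with zones from a finer clustering (0.25), with adjusted p from 0.0130 to 0.252 over 12 alternatives. Dnajb1 went the other way, with 224 ± 19.2 CPM in arterial-like and 266 ± 20.3 CPM in capillary-like cells (-0.25 ± 0.04, adjusted p = 4.73e-07), lower in 4 of 4 libraries. Dnaja1, Hspe1, Hspd1, Cirbp and Rbm3 did not pass. In venous-like against capillary-like cells 0 of the 10 genes passed (19.6% of genes did), and 3 had an unadjusted p under 0.05 in edgeR, the only tool used for this model. Without control library 1 Hspd1 was called as lower (-0.17). Hspa1a was at 147 ± 14.4 CPM in venous-like and 142 ± 26.4 CPM in capillary-like cells, so its order was arterial-like above the other two zones, which did not differ beyond their spread. The 10 genes and related chaperones were kept out of the genes that defined the zones.

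Smooth muscle-like cells differed from capillary-like cells in all 10 genes, in a comparison in which 57.8% of 7944 genes were called. Of the heat-induced genes 6 were higher and 2 lower, and both cold-induced genes were higher, where the background was 29.3% higher and 28.6% lower. Hspa1a averaged 365 ± 90.3 CPM in smooth muscle-like and 142 ± 25.6 CPM in capillary-like cells (1.35 ± 0.12, edgeR adjusted p = 1.08e-11). Hsp90aa1 averaged 615 ± 102.8 CPM in smooth muscle-like and 316 ± 62.1 CPM in capillary-like cells (0.97 ± 0.09, adjusted p = 1.97e-11). Hsph1 (1.23 ± 0.21), Hspa1b (0.86 ± 0.18) and Hspd1 (0.56 ± 0.13) were higher too, each in 4 of 4 libraries. Hspe1 passed in all libraries together (0.31 ± 0.13, adjusted p = 0.0364) but not without control library 1 (0.19), PLX5622 library 1 (0.34) or PLX5622 library 2 (0.31), with adjusted p from 0.0165 to 0.600 over 10 alternatives.

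The HSP40 genes were the 2 that were lower in smooth muscle-like cells. Dnaja1 averaged 311 ± 76.4 CPM there and 447 ± 121.5 CPM in capillary-like cells (-0.51 ± 0.09, edgeR adjusted p = 1.31e-05). Dnajb1 averaged 152 ± 72.0 CPM in smooth muscle-like and 266 ± 19.0 CPM in capillary-like cells (-0.78 ± 0.25, adjusted p = 0.0315), below in 4 of 4 libraries, and was not called without control library 2 (-0.68) or PLX5622 library 1 (-0.78). Cirbp averaged 165 ± 33.4 CPM in smooth muscle-like and 94.1 ± 32.2 CPM in capillary-like cells (0.80 ± 0.12, adjusted p = 7.27e-07), and Rbm3 was higher by 0.42 ± 0.10 (adjusted p = 4.35e-04). Cells with at most 5% mitochondrial UMIs no longer gave calls for Cirbp, Rbm3, Dnaja1, Hspa1b and Hspe1, with the few smooth muscle-like cells named above.

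Pericyte-like against capillary-like cells gave 0 calls among the 10 genes (22.5% of genes were called) and 4 at an unadjusted p under 0.05 in edgeR. Dnajb1 averaged 151 ± 19.9 CPM in pericyte-like and 266 ± 19.0 CPM in capillary-like cells, lower in 4 of 4 libraries (-0.83 ± 0.26, adjusted p = 0.0606, range 7.76e-06 to 0.273 over 10 alternatives). It was called without control library 1 (-0.88) and without PLX5622 library 2 (-0.85), as were Rbm3 without control library 1 (-0.34) and Hsph1 without PLX5622 library 2 (0.82). Both mural classes thus had Dnajb1 below capillary-like cells in every library, and the pericyte-like value carries the endothelial RNA noted above.

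**Figure D5:**
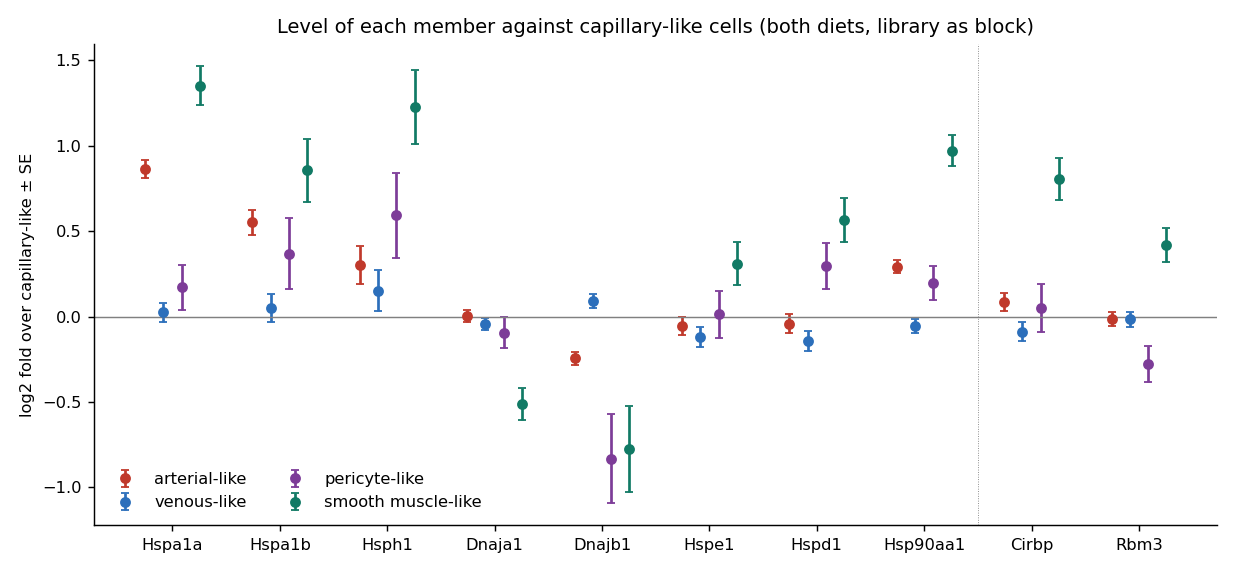
Log2 difference in level from capillary-like cells (vertical axis, with the SE from edgeR as bars) for each gene in arterial-like, venous-like, pericyte-like and smooth muscle-like cells, over both diets with the library as a block. Hspa1a is at 0.86 in arterial-like and 1.35 in smooth muscle-like cells, while Dnajb1 is below 0 in arterial-like, pericyte-like and smooth muscle-like cells.

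Other genes of the chaperone system gave context in endothelial-like cells. Of 29 other cytosolic chaperones, co-chaperones and heat shock factors, 2 were higher under PLX5622, 0 lower and 27 not called, with a median log2 fold change of 0.22 against 0.00 over all genes (edgeR called 1.05% of all genes in either direction). Chordc1, a zinc-binding partner of HSP90, had 84.8 and 68.4 CPM under PLX5622 and 55.4 and 54.7 CPM under control diet (0.47 ± 0.11, edgeR adjusted p = 0.0412). Ahsa2, related to the activator of the HSP90 ATPase, had 50.4 and 37.4 CPM under PLX5622 and 31.2 and 28.7 CPM under control diet (0.56 ± 0.12, adjusted p = 0.0421). Hspa8, the constitutive HSP70, had 1491 and 1135 CPM under PLX5622 and 772 and 1002 CPM under control diet (0.56 ± 0.16, adjusted p = 0.126).

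In the zones, Hspa8 passed in capillary-like (0.56, edgeR adjusted p = 0.0204) and arterial-like cells (0.54, adjusted p = 0.0250), and so did Stip1, which links HSP70 to HSP90 (0.59, adjusted p = 0.0211 and 0.51, adjusted p = 0.0488). Of this list 3 of 28 genes tested were higher in capillary-like (background 0.950%) and 4 of 28 in arterial-like cells (background 0.698%). None was lower there. In venous-like cells 0 of 28 were called, and 0 of 25 in pericyte-like and 0 of 24 in smooth muscle-like cells. Other classes of chaperones gave no call in endothelial-like cells, with 0 of 9 mitochondrial chaperones and proteases, 0 of 8 subunits of the cytosolic chaperonin TRiC and 0 of 14 chaperones of the endoplasmic reticulum. Their median log2 fold changes were 0.09, 0.15 and 0.15. Of the cold shock domain proteins, another family of RNA-binding proteins named for cold, 0 of 4 tested passed, at a median of 0.01. By edgeR these 4 lists had 4 genes at an unadjusted p under 0.05, Cct4, Cct6a, Grpel1 and Dnajb9, the last with a negative sign.

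Immediate early genes made up 42559 and 37916 CPM in endothelial-like cells under PLX5622 and 46121 and 46420 CPM under control diet. By edgeR 0 of 16 were called and 1, Ier3, had an unadjusted p under 0.05, at a median log2 fold change of -0.15. Of 16 circadian clock genes 3 were lower under PLX5622 and 0 higher. Nr1d1, a repressor in the clock, was at 63.0 and 74.8 CPM under PLX5622 and at 124 and 102 CPM under control diet (-0.70 ± 0.11, edgeR adjusted p = 0.00425). Nr1d2 (-0.66 ± 0.11, adjusted p = 0.00522) and Ciart (-0.63 ± 0.09, adjusted p = 0.00163) were lower as well. Hour of death and body temperature are not given in the sources used here, and the part of clock time or tissue handling in the result was not tested.

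The genes whose pattern was most like that of the summed heat-induced genes, over 20 sums of 4 libraries with the mean of each class taken out, were Hspa8 (Pearson r = 0.94), Hsp90ab1 (0.93), Cacybp (0.92), Hspb1 (0.91) and Serinc3 (0.91). For Cirbp and Rbm3 summed they included Vim (0.87), Mylip (0.84), Lmna (0.82) and Mcrs1 (0.81). The heat-induced and the cold-induced sums had an r of -0.77 with each other. Since the genes were chosen by their difference between these libraries, nothing is read from its sign. Sums of 1 library share its mice, handling and depth, so these values describe 4 libraries and have no p.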

How the data were processed

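Values in the deposited matrices are whole UMI counts, not normalized, for each gene in each barcode, per the file headers, and no cells had been called. Cell Ranger 6.0.1 and Seurat 4.0 were used per the submitters' processing notes, which name the builds mm10 and mm39 with no role. Another Cell Ranger version stands in the headers. Which build the counts come from is not stated in these sources.

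Cells with at least 1000 UMIs, 500 genes and at most 10% mitochondrial UMIs were clustered (Python 3.11.15, scikit-learn 1.9.0, leidenalg 0.10.2) with 2000 variable genes, 30 components, 15 neighbours and resolution 0.5. Endothelial-like cells were clustered again (20 components, resolution 0.8) without the 10 genes and related chaperones. Names came from fixed markers, of which at least 3 had to be detected. Classes needed a 4-fold level and 25% of cells with a UMI, and zones a 1.2-fold level. A cluster got no zone when too few markers passed or no zone led in them, or when its leading genes held more markers of another zone or class. Clusters of 639, 279 and 105 droplets without a zone were led by Pf4 and Lyz2, by Ccl5 and pericyte markers, and by hemoglobin genes. Most of these droplets stayed in the endothelial-like sums. A set of 74 droplets of an endothelial cluster led by Ccl5, Gzma and Pf4 was left unnamed. These choices can move cells between zones. No doublet caller was run, and an alternative left out the tenth of cells with the most UMIs.

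For each class, the UMIs of a library were added up before testing, so that the library is the replicate. Each sum had at least 20 cells a library, except smooth muscle-like cells at no more than 5% mitochondrial UMIs, with 6 to 22. The test was edgeR 4.0.16 (R 4.3.3), quasi-likelihood with robust estimation, TMM, its default filter on low counts and Benjamini-Hochberg adjustment over all genes, two-sided at 0.05. CPM use the TMM-scaled totals of the model, and summed CPM of lists the plain totals. Zone and mural levels used the library as a block. Alternatives included DESeq2 1.42.0 and limma-voom 3.58.1. The tests were tested on simulated data first, with the same spread set for all genes. No 2 libraries agreed within sampling noise (chi-square over degrees of freedom 6.24 to 15.7).

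The 10 genes, the gene lists and the tests were chosen with earlier results of these data known. The genes named are all 10, up to 4 of each list with the smallest p in a comparison, and the 5 with the most similar pattern to each class, of which 1 is not reported here. Replicate numbers repeat across diets, and same-numbered libraries deviated together with a correlation of 0.18 over 6227 genes. With 2 pairs and no shared origin stated, the numbers were not taken as pairs. Counts of 3' ends are not scaled by length, so levels are compared within a gene. All columns of the files were used.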

Additional observations from a re-analysis of the deposited data

Results flagged for a closer look

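Endothelial-like cells without a zone were in no comparison between zones, but they are part of the endothelial-like sums, so their ratio is not a separate observation. Erythroid-like cells were in no comparison. In both, the heat-to-cold ratio was above that of the control libraries. In cells without a zone it was 6.29 and 4.52 under PLX5622 and 3.05 and 3.05 under control diet, 1.77 times as high under PLX5622. In erythroid-like cells it was 6.88 and 5.09 under PLX5622 and 2.96 and 2.75 under control diet, 2.10 times as high. The erythroid-like ratio of control library 1 rests on 21 cells and has an exact 95% interval of 2.13 to 4.17. Endothelial markers made up 1.56% and 1.61% of erythroid-like UMIs under PLX5622 and 1.74% and 1.87% under control diet, so these droplets also hold endothelial RNA, and its part in the ratio was not tested.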

How the results depend on the processing

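No gene or count changed direction past the threshold under any alternative. Among endothelial-like cells, 2 genes were lower with library totals alone, and 5 were higher with no low-count filter, where 328 genes were called in all against 134. Arterial-like cells had 2 lower with library totals alone. In capillary-like cells 1 was lower with RLE factors, no filter, DESeq2, limma-voom, at most 5% mitochondrial UMIs, without the cells with the most UMIs or with zones at resolution 1.0, and DESeq2 gave 2 higher. DESeq2 gave 1 higher and 1 lower in venous-like cells. With zones clustered again without the mixed droplets, 1 was higher in arterial-like, 2 higher and 1 lower in capillary-like, 0 higher in venous-like cells, and 2 lower in venous-like against capillary-like cells. Venous-like against capillary-like cells gave 1 higher with library totals alone, without the cells with the most UMIs and at resolution 1.0, which also gave 1 lower. Both changes of zones were chosen after seeing the data. In pericyte-like against capillary-like cells 2 were lower with RLE factors or no filter, 1 lower at 5% mitochondrial UMIs and 1 higher without the cells with the most UMIs. In smooth muscle-like against capillary-like cells 4 were higher and 1 lower at 5% mitochondrial UMIs, and 1 lower without the cells with the most UMIs, which gave 1 higher in the diet test of smooth muscle-like cells. The cause was not tested. Leaving out 1 library gave, for the diet difference, 1 to 5 higher and 1 to 2 lower in endothelial-like (106 to 198 genes in all), 1 to 3 and 0 to 2 in arterial-like, 0 to 7 and 1 to 2 in capillary-like, 1 to 2 and 1 to 2 in venous-like, 0 and 0 in pericyte-like, and 0 to 1 and 0 in smooth muscle-like cells. Against capillary-like levels it gave 3 to 4 higher and 1 lower in arterial-like, 0 and 0 to 1 in venous-like, 0 to 1 and 0 to 2 in pericyte-like, and 7 to 8 and 1 to 2 in smooth muscle-like cells. The ratio was 1.51 to 2.07 times as high under PLX5622 in endothelial-like, 1.48 to 2.07 in arterial-like, 1.56 to 2.29 in capillary-like, 1.58 to 1.78 in venous-like, 1.51 to 1.94 in pericyte-like and 1.42 to 1.68 in smooth muscle-like cells. With the replicate block 3 genes were higher and 1 lower in endothelial-like cells, 169 genes were called in all, and no call of the 10 genes changed in any class. With cells thinned to 2000 UMIs, cold-induced shares differed by -12.9 points in endothelial-like, -13.0 in capillary-like and -15.1 in venous-like cells. Heat-induced shares then differed by 5.25 points in endothelial-like cells (7.95 at 1000 UMIs), 3.65 in arterial-like (7.01), 6.64 in capillary-like (12.03) and 2.05 in venous-like cells (5.82). Leaving out mural droplets over 1% endothelial markers was run for the pericyte-like ratio, but not for tests of single genes in pericyte-like cells, since 8 cells stayed in control library 1. Low depth limits Hsph1 in pericyte-like cells, at 7 UMIs in that library.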

Other observations

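Genes with a low correlation to Cirbp and Rbm3 summed, over the same 20 sums, were looked up after their values were seen. They included Insig1 (r = -0.90) and Srebf2 (-0.88), which control sterol synthesis, and the chaperone gene Ahsa2 (-0.90). In astrocyte-like cells, of which there were 9 and 19 under PLX5622 and 14 and 38 under control diet, the heat-to-cold ratio was 3.40 and 5.76 under PLX5622 and 3.10 and 3.44 under control diet, so the groups overlapped.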
